A study of Homo sapiens with 12 samples.

Results

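The MAGED genes are 4 X-linked genes, MAGED1, MAGED2, MAGED4 and MAGED4B, taken by symbol from the 58735 genes of the count table. The family was chosen by its fold change in the CEP+4SU against DMSO comparison, where MAGED4 had the largest change of all genes tested, so its values in that comparison are a description and carry no test. MAGED4 and MAGED4B were read singly and summed, because they are near-identical copies. All 4 genes passed the filter on low counts and were among the 17729 genes tested.

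RNA-Seq of polyadenylated RNA was measured in HEK293T cells, a human embryonic kidney line that carries the SV40 large T antigen, labelled as wild type, in 4 groups of 3 libraries. The experiment asked whether the conditions used to map RNA-binding cysteines alter the transcriptome. The DMSO group received vehicle. The CEP group received AHL-Pu-1, a clickable electrophilic purine that reacts with protein cysteines, at 25 µM for 1 h. The 4SU group received 4-thiouridine, a uridine analog that is built into new RNA and crosslinks to bound protein under UV light, at 100 µM for 16 h. The CEP+4SU group received both. Every library carries one treatment protocol that includes UV crosslinking, and the labels do not say which groups were irradiated. That protocol gives the CEP dose in mM, whereas the design text and the methods give 25 µM. The library totals were 16569114 to 24644734 counts on genes. The HEK293T markers were measured, with VIM at 239 CPM (counts relative to the TMM-scaled library size, on the usual CPM scale), NEFM at 158, KRT8 at 86.1 and PAX2 at 7.39 CPM on average. Of the markers of other cell types, CD3E and HBB had 0 counts in all libraries, PTPRC 5, ALB 19 and PECAM1 46 counts in all, whereas the collagens COL1A1 and COL3A1 reached 35.7 and 5.41 CPM.

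MAGE proteins share the MAGE homology domain, through which many of them bind RING-type ubiquitin ligases. Type I MAGE genes, such as the MAGEA genes, are mostly silent outside the germ line and are re-expressed in tumours, whereas type II genes, to which the MAGED genes belong, are expressed in many normal tissues. MAGED1 (NRAGE) is an adaptor of the p75 neurotrophin receptor and of inhibitor-of-apoptosis proteins. MAGED2 is needed for salt reabsorption in the fetal kidney, where it acts with the G protein GNAS and the chaperone DNAJB1. MAGED4 and MAGED4B are neighbouring copies of one gene, known from brain and glioma.

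The 4 genes lie on the X chromosome (GRCh38, GENCODE 29). MAGED1 (ENSG00000179222) occupies chrX:51803007-51902357 on the plus strand, and MAGED2 (ENSG00000102316) chrX:54807599-54816012 on the plus strand. MAGED4B (ENSG00000187243) occupies chrX:52061827-52069248 on the minus strand. MAGED4 (ENSG00000154545) occupies chrX:52184823-52192268 on the plus strand, so that the copies face away from each other across 115574 bases. Within 500000 bases of the copies the table holds 42 genes, 34 of them with 0 counts in all 12 libraries. Only MAGED1, among these neighbours, averaged 1 CPM or more, and GSPT2, a translation termination factor gene, had 185 counts in all.

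The sequences below are shown because they decide which of the genes a read can tell apart. They are the coding stretch around the longest run that MAGED4 shares with MAGED1, 113 bases across 3 exons of MAGED4, with the 41 bases of that run, or the bases at the same place, in capitals. The stretch lies at chrX:52189427-52190015 in MAGED4, chrX:52064080-52064668 in MAGED4B, chrX:51898154-51898610 in MAGED1 and chrX:54812985-54813517 in MAGED2, introns included, each on the strand of its gene.
MAGED4: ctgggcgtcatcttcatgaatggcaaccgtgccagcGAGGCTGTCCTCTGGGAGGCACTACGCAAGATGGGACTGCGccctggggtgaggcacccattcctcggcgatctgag
MAGED4B: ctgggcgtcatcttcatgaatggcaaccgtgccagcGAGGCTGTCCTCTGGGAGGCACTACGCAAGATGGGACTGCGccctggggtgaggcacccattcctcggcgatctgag
MAGED1: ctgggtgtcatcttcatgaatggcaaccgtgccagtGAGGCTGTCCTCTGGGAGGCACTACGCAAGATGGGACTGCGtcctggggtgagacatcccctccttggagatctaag
MAGED2: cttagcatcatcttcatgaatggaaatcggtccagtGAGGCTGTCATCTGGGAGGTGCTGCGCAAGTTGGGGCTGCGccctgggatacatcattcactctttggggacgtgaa
The MAGED4 and MAGED4B stretches are the same. MAGED1 matched MAGED4 at 41 of 41 bases of the run and at 103 of the 113 bases, and MAGED2 at 35 of the 41 and at 85 of the 113. Over the best local alignment of the coding sequences, the identity was 78.2% between MAGED1 and MAGED4, 77% between MAGED2 and MAGED4, and 75.5% between MAGED1 and MAGED2.

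The copies could not be separated over most of their length. The annotated coding sequences of the main transcripts of MAGED4 and MAGED4B have 2217 bases each and are 100% identical, and the whole of the 2495-base MAGED4 transcript aligned to that of MAGED4B, of 2510 bases, with 0 mismatches. Of the 6440 distinct windows of 150 bases, the read length of the study, in MAGED4 transcripts, 6259 (97.2%) also occur in MAGED4B transcripts. No such window of MAGED1 or MAGED2 occurs in another member. How reads that match both copies were counted is not given in the sources used here, so a count given to one copy may belong to the other, and their sum is free of that exchange. The sum still depends on whether such reads were dropped, or counted for both copies.

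The annotated start regions of the copies are also alike. The RefSeq windows from 250 bases before to 50 after the start (GRCh38.p14, chrX:52184638-52184937, plus strand, for MAGED4 and chrX:52069134-52069433, minus strand, for MAGED4B) share the run of 276 bases in capitals, and are shown to let the copies be compared upstream of their reads as well. Of the 2 windows of MAGED4B, that with the longest such run is shown. The run sits at a different place in each window, so the annotated starts do not coincide.
MAGED4: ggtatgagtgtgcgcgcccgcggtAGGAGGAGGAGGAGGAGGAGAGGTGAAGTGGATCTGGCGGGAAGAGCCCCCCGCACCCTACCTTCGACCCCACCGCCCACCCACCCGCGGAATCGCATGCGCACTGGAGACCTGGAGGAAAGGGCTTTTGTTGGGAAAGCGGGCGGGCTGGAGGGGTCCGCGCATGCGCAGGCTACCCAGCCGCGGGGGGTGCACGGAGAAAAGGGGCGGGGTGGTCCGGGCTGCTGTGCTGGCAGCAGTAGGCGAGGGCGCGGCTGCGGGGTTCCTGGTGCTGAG
MAGED4B: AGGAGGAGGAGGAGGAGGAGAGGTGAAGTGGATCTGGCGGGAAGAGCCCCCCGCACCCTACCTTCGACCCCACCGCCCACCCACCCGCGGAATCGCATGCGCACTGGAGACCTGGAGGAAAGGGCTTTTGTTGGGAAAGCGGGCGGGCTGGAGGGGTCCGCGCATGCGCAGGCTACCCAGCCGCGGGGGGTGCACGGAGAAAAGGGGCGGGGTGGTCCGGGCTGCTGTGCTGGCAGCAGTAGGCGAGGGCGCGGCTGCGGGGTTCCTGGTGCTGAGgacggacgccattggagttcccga
The 8 letters GCATGCGC, the core of sites bound by the transcription factor NRF1, were found on either strand in 3.05% of all 35116 such windows. The 1 window of MAGED4, both windows of MAGED4B and 1 of the 2 of MAGED1 hold it, and neither window of MAGED2 does. The letters GGGCGG, a GC box, are in 45% of all windows and in at least 1 window of each member. Both motifs were chosen after the sequences were seen, and a match is no measured site.

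MAGED1 and MAGED2 were abundant and nearly level, whereas the copies were rare and uneven. In FPKM, which is per length, MAGED1 averaged 49.2 ± 1.74 (SD, n = 3) and MAGED2 48.6 ± 3.97 in DMSO. MAGED1 was above MAGED2 in 5 of the 12 libraries, with a mean difference of -1.23 FPKM and an SD of 3.09, so their order was not resolved. The summed FPKM of MAGED4 and MAGED4B was 0.321 in DMSO, and in every library the lower of MAGED1 and MAGED2 stood 7.19 to 248 times above it. The highest library exceeded the lowest 1.38-fold in CPM for MAGED1 and 1.24-fold for MAGED2, but 33.4-fold for MAGED4, 53.2-fold for MAGED4B and 31.7-fold for their sum.

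MAGED4 had low counts in every DMSO library and uneven, mostly higher counts in the others. Its counts were 19, 20 and 15 in DMSO, 32, 9 and 139 in CEP, 146, 107 and 12 in 4SU, and 149, 97 and 353 in CEP+4SU. In CPM this was 0.836, 0.985 and 0.622 in DMSO, 1.70, 0.530 and 6.59 in CEP, 7.73, 6.31 and 0.626 in 4SU, and 8.01, 4.65 and 17.7 in CEP+4SU. One CEP library and one 4SU library stayed at the DMSO level while others of the same group were several times higher. The group means were 0.814 ± 0.183, 2.94 ± 3.22, 4.89 ± 3.76 and 10.1 ± 6.79 CPM in that order, and each neighbouring pair of groups overlapped. Only the CEP+4SU libraries all stood above all DMSO libraries, as in 14.1% of all genes tested.

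MAGED4B was highest in other libraries than MAGED4. Its counts were 13, 18 and 20 in DMSO, 15, 7 and 13 in CEP, 12, 15 and 89 in 4SU, and 408, 11 and 72 in CEP+4SU. The corresponding CPM were 0.572, 0.887 and 0.829, then 0.799, 0.412 and 0.617, then 0.635, 0.884 and 4.64, and last 21.9, 0.527 and 3.62. Thus 4SU replicate 3, the lowest of its group for MAGED4, was the highest for MAGED4B, and CEP+4SU replicate 1 alone held 408 of the MAGED4B counts. The CEP+4SU mean of 8.69 ± 11.6 CPM had an SD above the mean, and all groups of MAGED4B overlapped with DMSO.

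**Figure D1:**
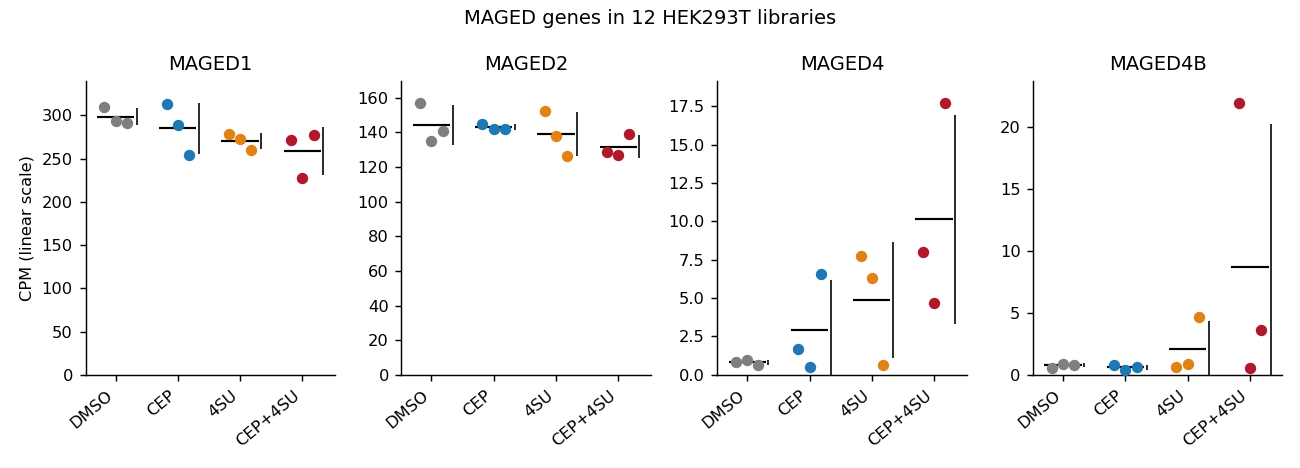
CPM (linear axis from 0) of each MAGED gene in each library by group. Points are libraries in the order of their replicate numbers, horizontal bars the group mean and vertical bars the SD (n = 3, drawn down to 0 at most). MAGED1 and MAGED2 varied little, and the DMSO libraries of MAGED4 sat between 0.622 and 0.985 CPM while those of CEP+4SU sat between 4.65 and 17.7.

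Summed over the copies, the values do not change where a read is given to one copy instead of the other, and the 4SU libraries lay closer together than those of either copy alone. The summed counts were 32, 38 and 35 in DMSO, 47, 16 and 152 in CEP, 158, 122 and 101 in 4SU, and 557, 108 and 425 in CEP+4SU. These were 1.41, 1.87 and 1.45 CPM in DMSO, 2.50, 0.943 and 7.21 in CEP, 8.37, 7.19 and 5.27 in 4SU, and 29.9, 5.18 and 21.3 in CEP+4SU. The 4SU libraries, at 6.94 ± 1.56 CPM, stood above those of DMSO, at 1.58 ± 0.256, without overlap, as in 7.58% of all genes tested. CEP, at 3.55 ± 3.26, spanned the DMSO range. CEP+4SU averaged 18.8 ± 12.6 CPM. The 6 libraries with 4SU, alone or with CEP, ran from 5.18 to 29.9 CPM with a median of 7.78, and the 6 without it from 0.943 to 7.21 with a median of 1.66. One library without 4SU, CEP replicate 3, was above the lowest library with it. Both sets of 6 hold libraries of the CEP+4SU against DMSO comparison by which the family was chosen. Part of their separation may follow from that choice, and the split is a description with no test.

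**Figure D2:**
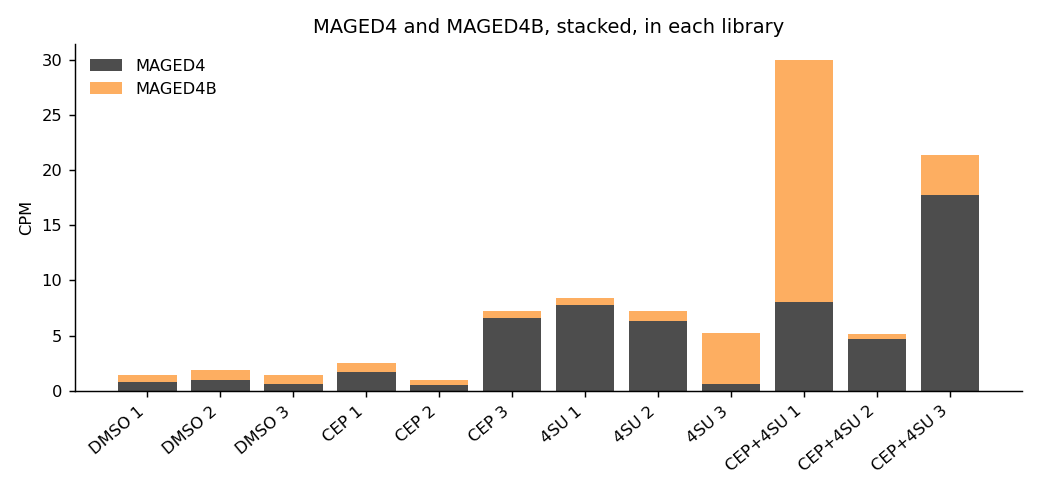
CPM of MAGED4 (dark) and MAGED4B (light), stacked, in each of the 12 libraries. The tallest bar is CEP+4SU replicate 1, at 29.9 CPM, most of it MAGED4B, and the DMSO bars reach 1.41 to 1.87 CPM.

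The split between the copies differed from library to library. MAGED4 took 59.4% (95% exact binomial interval 40.6 to 76.3), 52.6% (35.8 to 69.0) and 42.9% (26.3 to 60.6) of the pair's counts in DMSO, so every DMSO interval held 50%. In CEP it took 68.1% (52.9 to 80.9), 56.3% (29.9 to 80.2) and 91.4% (85.8 to 95.4). In 4SU it took 92.4% (87.1 to 96.0), 87.7% (80.5 to 93.0) and 11.9% (6.29 to 19.8), and in CEP+4SU 26.8% (23.1 to 30.6), 89.8% (82.5 to 94.8) and 83.1% (79.1 to 86.5). Of the 12 intervals, 4 held 50%, 6 lay above it and 2 below. Libraries of the same treatment therefore stood on opposite sides of an even split, in 4SU and in CEP+4SU, by more than counting error, which is all that these intervals cover. CEP and 4SU, whose libraries the choice of the genes did not use, had mean shares of 71.9 ± 17.9% and 64.0 ± 45.2% (n = 3 each). The difference of 7.93 points had p = 0.9 in a two-sided exact permutation test over 20 splits, of which the smallest possible p is 0.1. It turned to -18.1 points without 4SU replicate 3 and to -1.83 points without CEP replicate 3.

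**Figure D3:**
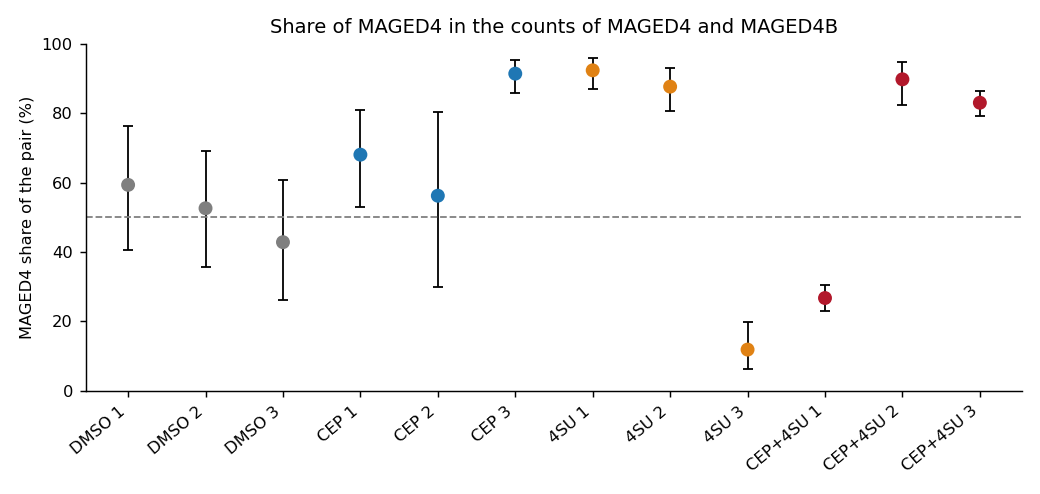
Share of MAGED4 in the summed counts of MAGED4 and MAGED4B in each library, in percent, with 95% exact binomial intervals. The dashed line marks 50%. The 3 DMSO libraries lie around the line, and 4SU replicate 3 (11.9%) and CEP+4SU replicate 1 (26.8%) lie below it.

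The spread of the copies within groups was far above that of most other genes. The tagwise biological coefficient of variation, edgeR's measure of the spread between replicates beyond counting, was 0.569 for MAGED4, higher than for 98.9% of all genes tested, and 0.651 for MAGED4B, higher than for 99.7%. Among the 2710 genes within 1 log2 CPM of MAGED4, 99.9% had a lower value. The estimate uses all 12 libraries, among them those by which the family was chosen. A choice by the largest fold change can favour a gene with a wide spread, so these ranks are descriptions. For MAGED1 and MAGED2 it was 0.0795 and 0.0749, below the common value of 0.114. Among the 1408 genes within 1 log2 CPM of MAGED1, however, 66.7% had a lower value. Among the 3270 genes that near to MAGED2, 38.6% did.

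In cells given CEP, none of the 4 genes passed the test against DMSO. edgeR's quasi-likelihood test called 0 of the 4 at an adjusted p of 0.05, and 0.0564% of all genes tested were called (10 genes). An unadjusted p under 0.05 was reached by 1 of the 4 and by 18.6% of all genes tested. MAGED4 was 1.89 ± 0.79 (SE) higher on the log2 scale (edgeR, unadjusted p = 0.0277, adjusted p = 0.224), and 0.49 higher without CEP replicate 3, the library with 139 counts. MAGED4B had a log2 fold change of -0.31 ± 1.07 (edgeR, adjusted p = 0.901). The sum had one of 1.21 ± 0.59 (edgeR, adjusted p = 0.279), or 0.15 without CEP replicate 3.

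In cells given 4SU, none of the 4 genes was called either. The summed copies were higher in all 3 libraries, MAGED4 in 2 and MAGED4B in 1 of them than in any DMSO library. The share of all genes called was 0.00564%, which is 1 gene, and an unadjusted p under 0.05 was reached by 1 of the 4 members and by 6.5% of all genes. MAGED4 was 2.58 ± 0.77 higher (edgeR, unadjusted p = 0.00347, adjusted p = 0.595) and MAGED4B had a log2 fold change of 1.44 ± 0.92 (edgeR, adjusted p = 0.806), which was -0.0021 without 4SU replicate 3, the library with 89 counts. For the sum it was 2.14 ± 0.57 (edgeR, unadjusted p = 0.00131, adjusted p = 0.531), and it stayed between 1.99 and 2.31 without any one of the 4SU libraries. All 3 summed 4SU values were above all DMSO values, as were those of 7.58% of the genes tested. The call depended on the libraries in the fit. With the 6 DMSO and 4SU libraries alone, edgeR gave adjusted p = 0.0139 for MAGED4 and 5.44e-05 for the sum. That fit called 94 of 16864 genes. With all groups in the fit but DMSO replicate 1, 2 or 3 left out, the sum had adjusted p of 0.992, 0.907 and 0.956 (edgeR). The tests of CEP and of 4SU both use the DMSO libraries of the comparison by which the family was chosen. That choice favoured a gene low in these DMSO libraries, so the p-values of the copies against DMSO may be too small.

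In cells given both compounds, the fitted log2 fold changes against DMSO were 3.64 ± 0.76 for MAGED4, 3.49 ± 0.87 for MAGED4B and 3.57 ± 0.56 for the sum, given here with no test. MAGED4 lay at 2.95 to 3.99 without any one of the CEP+4SU libraries. MAGED4B was at 1.42 without CEP+4SU replicate 1. On the log2(FPKM + 1) scale, which shrinks the changes of genes this low, limma gave 1.31 for MAGED4, 0.92 for MAGED4B and 1.70 for the sum, and on the log2(FPKM + 0.1) scale 2.84, 1.86 and 2.92. In this comparison 1.64% of all genes tested were called (290 genes), from which nothing is read about the members.

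CEP and 4SU were compared directly, as the pair of groups that the choice of the genes did not use. The fit took its estimate of the spread from all 12 libraries, among them those used by that choice. edgeR called 0 of the 4 genes, and 0.13% of all genes (23 genes). An unadjusted p under 0.05 was reached by 0 of the 4 and by 14.9% of all genes. With the 6 CEP and 4SU libraries alone, edgeR gave unadjusted p = 0.0156 for MAGED4B and 0.0467 for the sum. The adjusted p were 0.277 and 0.369 (edgeR). MAGED4 had unadjusted p = 0.320 there (edgeR, adjusted p = 0.664). In that fit 2195 of 16582 genes had an unadjusted p under 0.05. The log2 fold change of CEP over 4SU was -0.69 ± 0.67 for MAGED4 (edgeR, adjusted p = 0.659), -1.75 ± 0.97 for MAGED4B (0.413) and -0.93 ± 0.52 for the sum (0.419). Single libraries carried much of this, since MAGED4 was at -2.10 without CEP replicate 3 and at -0.19 without 4SU replicate 1, and MAGED4B at -0.32 without 4SU replicate 3. The sum ran from 0.943 to 7.21 CPM in CEP and from 5.27 to 8.37 in 4SU, so the groups overlapped through CEP replicate 3 alone. Without that library the difference of the sum was -1.99 (edgeR, adjusted p = 0.186). The compounds were given at different doses and for different times.

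**Figure D4:**
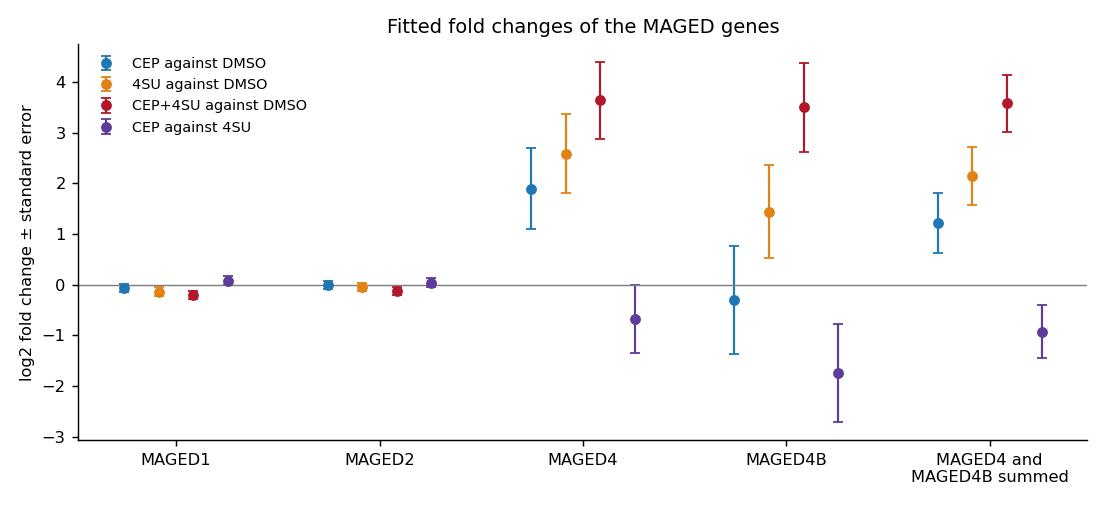
Fitted log2 fold changes (edgeR) with standard errors for each MAGED gene and for MAGED4 and MAGED4B summed, by comparison. MAGED1 and MAGED2 lie near 0 throughout, whereas MAGED4, at 1.89, 2.58 and 3.64 against DMSO, has standard errors of 0.76 to 0.79.

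MAGED1, the neurotrophin receptor adaptor, differed little between groups. Its counts were 7032, 5963 and 7028 in DMSO, 5874, 4894 and 5360 in CEP, 5253, 4617 and 4991 in 4SU, and 5059, 4737 and 5513 in CEP+4SU. In CPM it was 309, 294 and 291 in DMSO, 313, 288 and 254 in CEP, 278, 272 and 260 in 4SU, and 272, 227 and 277 in CEP+4SU. Every 4SU library was thus below every DMSO library, as in 10.3% of all genes tested, and so was every CEP+4SU library, as in 14.6%. The log2 fold change was -0.06 ± 0.086 for CEP (edgeR, adjusted p = 0.708) and -0.14 ± 0.086 for 4SU (edgeR, adjusted p = 0.800) against DMSO, and 0.08 for CEP over 4SU (edgeR, adjusted p = 0.705). For CEP+4SU it was -0.21, with no test.

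MAGED2, the salt-transport regulator, was the steadiest member. It had 3570, 2737 and 3392 counts in DMSO, 2724, 2410 and 2995 in CEP, 2879, 2342 and 2428 in 4SU, and 2399, 2651 and 2772 in CEP+4SU. Its CPM were 157, 135 and 141 in DMSO, 145, 142 and 142 in CEP, 152, 138 and 127 in 4SU, and 129, 127 and 139 in CEP+4SU. All groups overlapped with DMSO. The CEP libraries all stood above those of CEP+4SU, and the share of all genes that do so was not computed. The log2 fold changes were -0.01 for CEP (edgeR, adjusted p = 0.953), -0.05 for 4SU (edgeR, adjusted p = 0.928) and 0.04 for CEP over 4SU (edgeR, adjusted p = 0.846), and -0.13 with no test for CEP+4SU. The standard error against DMSO was 0.082, so the tested differences were smaller than the error of the fit.

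The other MAGE genes and the partners of MAGE proteins gave few calls. Of 8 other type II genes, 6 were tested and 0 called in any of the 4 comparisons. The most abundant were TRO (trophinin), a cell adhesion protein, at 57.5 CPM, MAGEF1 at 49.5, NSMCE3, a subunit of the SMC5/6 complex, at 26.6 and MAGEE1 at 13.5 CPM. The median log2 fold change of these 6 was -0.14 for CEP, 0.00 for 4SU and -0.10 for CEP+4SU, beside medians of -0.0047, -0.0073 and 0.0001 over all genes tested. Of 26 type I genes, 7 were tested and again 0 called, with MAGEB2 highest at 8.37 CPM, followed by MAGEA6 at 3.36, MAGEA3 at 1.73 and MAGEB6 at 0.609. Their medians were -0.30 for CEP, -0.46 for 4SU and -0.11 for CEP+4SU. An unadjusted p under 0.05 was reached in CEP, 4SU and CEP+4SU by 0, 0 and 1 of the type II genes and by 0, 2 and 2 of the type I genes, beside 18.6%, 6.5% and 21.4% of all genes.

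Of 11 ubiquitin ligases, SMC5/6 subunits and other ligase partners, all were tested and SMC5, an ATPase of chromosome maintenance, was the only one called. It was 0.34 higher on the log2 scale in CEP+4SU (edgeR, adjusted p = 0.045), where 0.643% of all genes were called higher. The medians of the list were 0.12, -0.04 and -0.03 in CEP, 4SU and CEP+4SU. An unadjusted p under 0.05 (edgeR) was reached by 2, 2 and 6 of the 11 there, beside 18.6%, 6.5% and 21.4% of all genes. Of 14 reported partners of MAGED1 and MAGED2, 12 were tested and 0 called, among them GNAS at 1031 CPM, the hypoxia factor HIF1A at 120, DNAJB1 at 116 and the caspase inhibitor XIAP at 105 CPM, with medians of 0.00, 0.05 and -0.05. Of these 12 partners, 2, 1 and 3 reached an unadjusted p under 0.05 (edgeR) in CEP, 4SU and CEP+4SU. The small nucleolar RNAs SNORA11D and SNORA11E, which lie inside the copies, had 0 counts in every library, and SNORA11, inside MAGED2, had 9 in all. Such RNAs carry no poly(A) tail, and the libraries were made from polyadenylated RNA.

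Across the 12 libraries, the Pearson correlation of log2 CPM was 0.643 between MAGED1 and MAGED2 and 0.309 between MAGED4 and MAGED4B. These values are descriptions over libraries that share treatments. Among 14903 genes with a mean of at least 1 CPM, the genes most like MAGED4 were MRPL1, a mitochondrial ribosomal protein gene (r = 0.920), the ubiquitin ligase gene RNF135 (0.847) and RPA2, a subunit of the single-strand binding protein RPA (0.838). Those most like MAGED4B were WDR37 (0.845), CDCA8 (0.835) and CPSF7 (0.826). For MAGED1 they were GTPBP1 (0.968), POLR3E (0.967) and BCR (0.964), and for MAGED2 RPS2P46 (0.880), PSAP (0.878) and CAPG (0.867). With so many genes and 12 libraries, high values of r can arise without a link. The correlation also ignores the size of the changes, since MRPL1 ran only from 33.0 to 43.1 CPM and RPA2 from 206 to 265.

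Some other gene pairs that share an identical annotated transcript were also uneven. Of 61 such protein-coding pairs, a set chosen after the data were seen, 20 had a summed mean of at least 1 CPM and no library at 0. The highest library exceeded the lowest by a median of 2.59-fold over these pairs, against 1.52-fold over 14903 single genes. It did so at least 5-fold in 6 of the 20 pairs, and 2.32% of the single genes did so or had a library at 0. The single genes were not matched to the pairs in expression, and low counts widen this ratio. The difference between pairs and single genes is therefore a description. MAGED4 and MAGED4B ranked 2 of the 20 by this ratio, at 31.7-fold, and 1 by the range of the share of one copy, 80.5 points. Their family was chosen by the change of MAGED4, which favours a high rank. The highest library was a DMSO library in 3 of the 6 pairs, a CEP library in 1 and a CEP+4SU library in 2. The part that the counting of shared reads plays in the MAGED4 values was not tested.

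**Figure D5:**
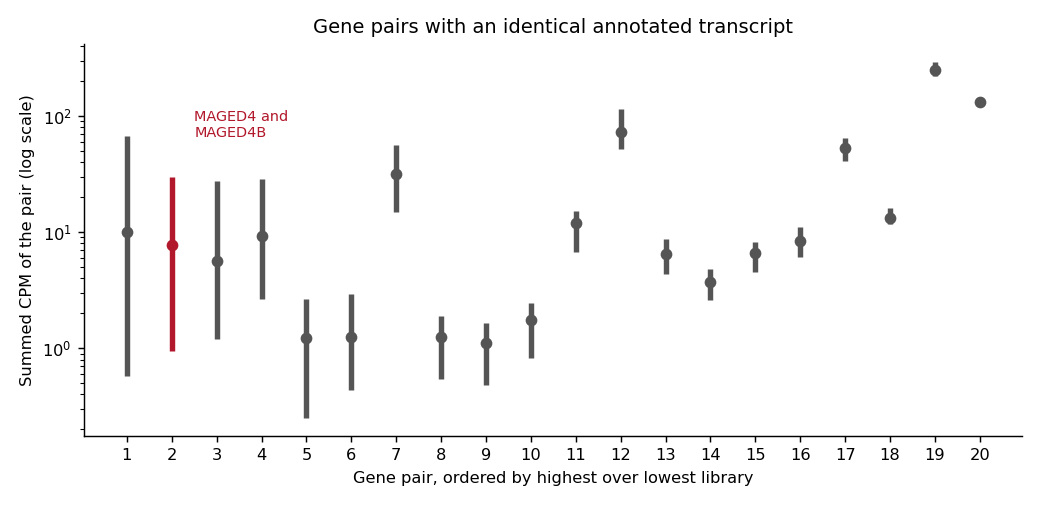
Summed CPM (log axis) of 20 gene pairs with an identical annotated transcript, ordered by the ratio of the highest to the lowest of the 12 libraries. Lines run from the lowest to the highest library and points are the mean. MAGED4 with MAGED4B (red) spans 0.943 to 29.9 CPM, the second widest ratio.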

How the data were processed

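RNA-Seq counts and FPKM were analysed in 12 HEK293T libraries, 3 per group, grouped by the labels. Per the labels, reads were aligned with HISAT2 2.0.5 to GRCh38 and the deposited counts were made by the authors with featureCounts 1.5.0-p3 as whole numbers without normalization. The deposited FPKM, also the authors' values, scale those counts by gene length and a library size. That library size is not the plain count total. The paper states that read counts were adjusted with edgeR, and whether this applies to the FPKM is not given. The strand setting and the treatment of reads matching several genes are not given in the sources used here. All 58735 identifiers were found in GENCODE 29.

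Genes were filtered with filterByExpr (minimum count 10, minimum total 15), scaled by TMM and fitted in one model of 4 groups with edgeR 4.0.16 in R 4.3.3 (quasi-likelihood test, Benjamini-Hochberg adjustment over 17729 genes, threshold 0.05). For the summed pair, both rows were replaced by their sum. Standard errors were derived from the test, as the absolute log2 fold change divided by the square root of the quasi-likelihood F statistic. The fit was run on simulated counts that had the common spread for every gene and changes in CEP alone. The copies have a far wider spread, so nothing is read from that run about them. The alternatives were DESeq2 1.42.0, limma 3.58.1 on log2(FPKM + 1) or log2(FPKM + 0.1), other scalings, filters and thresholds, the replicate number as a block, and each library left out in turn. The paper describes the data of its RNA-Seq figure as from 3 independent biological experiments. It also states that its studies were repeated on different days. Which libraries shared a day or batch, and whether the replicate numbers mark this, is not given. The p-values thus measure the spread between these samples, part of which may be technical. The members, gene lists and tests were chosen with earlier results of these data known. Genes outside the family were named if called in a list, otherwise the 4 most abundant of a list, neighbours of at least 1 CPM, and the 3 most correlated genes. The authors' own comparison columns and group means were not used. Sequence identities were computed with Biopython 1.88.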

Additional observations from a re-analysis of the deposited data

How the results depend on the processing

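No member was called in CEP, 4SU or CEP against 4SU under most alternatives, but the number of genes called over the whole table changed with nearly every setting. The counts called for CEP, 4SU and CEP+4SU against DMSO and for CEP against 4SU were 10, 1, 290 and 23. They became 7864, 19, 8336 and 5187 at the threshold of 0.5 printed in the methods, 662, 41, 1234 and 306 with no low-count filter, 5, 94, 567 and 8 with the 6 libraries of a comparison, 253, 21, 1164 and 263 with DESeq2, 0, 6, 0 and 12 with limma at a pseudocount of 1, and 4, 9, 8 and 10 at 0.1. With upper-quartile scaling 4SU gave 0 and CEP against 4SU 13, and with library size alone 4SU gave 0. With the replicate number as a block they were 780, 8, 1667 and 316. Within the 4 comparisons, deviations of libraries with one number correlated at no more than 0.0889 over all genes tested. CEP+4SU was not set against CEP or 4SU in this way, and whether the numbers mark a shared batch was not tested. With single libraries left out, the ranges were 4 to 1214 for CEP (1214 without CEP replicate 1), 0 to 0 for 4SU, 14 to 812 for CEP+4SU (812 without CEP+4SU replicate 1) and 3 to 402 for CEP against 4SU (402 without CEP replicate 1). Members called, 0 in each of the 3 comparisons in which they were tested (CEP, 4SU and CEP against 4SU), became 1 for CEP and 1 for CEP against 4SU at a threshold of 0.5, 1, 2 and 1 for CEP, 4SU and CEP against 4SU with no filter, and 1 for 4SU with its 6 libraries. Beside these, 7864 and 5187 of 17729 genes were called at 0.5. With no filter 662, 41 and 306 of 35634 were called, and with the 6 libraries of 4SU 94 of 16864. The sum passed the threshold with no filter at log2 fold changes of 1.21 (CEP), 2.14 (4SU) and -0.94 (CEP against 4SU), and with the 6 libraries at 2.15 (4SU). Signs turned for MAGED2 in 4SU with library size alone (0.0038) and in CEP against 4SU with upper-quartile scaling (-0.0013) or library size alone (-0.016). With single libraries left out, they also turned within the ranges of MAGED1 in CEP (-0.12 to 0.011, above 0 without CEP replicate 3), of MAGED2 in CEP (-0.050 to 0.052, above 0 without DMSO replicate 1), in 4SU (-0.12 to 0.019, above 0 without DMSO replicate 1, at 0.016, or 4SU replicate 3) and in CEP against 4SU (-0.042 without 4SU replicate 3 to 0.094), and of MAGED4B in 4SU (-0.0021 without 4SU replicate 3 to 1.88). The difference in MAGED4 share ran from -18.1 to 22.1 points with single libraries left out, with -1.83 without CEP replicate 3. With limma at a pseudocount of 1, MAGED4 was at 0.38 in CEP and 0.70 in 4SU, and the sum at 0.32 and 0.87. The cause of the other changes was not tested. DESeq2 gave no adjusted p for MAGED4, MAGED4B and their sum in CEP and 4SU against DMSO, and a minimum of 10 counts in every library removed both copies. MAGED4 and MAGED4B had 7 to 20 counts in the libraries at the DMSO level, which limits their precision there.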

Other observations

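Values of other pairs with an identical annotated transcript, named after their values were seen, ran from wide to steady. BOLA2B and BOLA2, which encode an iron-sulfur cluster assembly protein, ran from 0.574 CPM in 4SU replicate 3 to 66.7 CPM in DMSO replicate 1, a ratio of 116. SMIM11A and SMIM11B ran from 1.21 CPM in CEP+4SU replicate 3 to 27.3 CPM in CEP replicate 3, a ratio of 22.6. U2AF1 and U2AF1L5, copies of a splicing factor gene, differed 3.76-fold between libraries, and the share of U2AF1 in their counts ran from 13.2% to 78.2%. The steadiest of the 20 pairs were WASHC2A and WASHC2C, 1.15-fold between libraries with a share of WASHC2A from 48.7% to 54.7%, and NOMO1 and NOMO2, 1.34-fold with a share of NOMO1 from 61.9% to 69.9%.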
